A study of Mus musculus with 22 samples.

Results

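The genes that carry a cell from G1 towards S phase were followed through the return of RNA polymerase II (PolII) after mitosis. The set holds 10 of the 22350 protein-coding genes annotated in GENCODE vM1 (mouse build mm9) on the 20 chromosomes of the peak lists: the D-type cyclins Ccnd1, Ccnd2 and Ccnd3, the E-type cyclins Ccne1 and Ccne2, the cyclin-dependent kinases Cdk2, Cdk4 and Cdk6, the transcription factor gene E2f1 and the retinoblastoma gene Rb1. They were listed by symbol from their known roles, and all 10 were found in the annotation. For each gene, the peaks that overlapped the annotated gene and 2 kb on either side were read from 18 PolII ChIP-seq peak lists.

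In G1, D-type cyclins bind Cdk4 and Cdk6, and E-type cyclins bind Cdk2. The active kinases phosphorylate the Rb protein, which otherwise holds E2F transcription factors in check. Released E2F factors drive genes of DNA replication and also Ccne1, Ccne2 and E2f1. D-type cyclins answer to growth signals, and their mRNAs and proteins are short-lived, so that new transcription in G1 is needed to keep them up.

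The cells were G1E-ER4, a mouse erythroid precursor line that lacks endogenous GATA1, in which both CTCF alleles carried a fusion to AID-mCherry and which expressed the TIR protein from a retrovirus marked with GFP. CTCF is a protein that sets domain boundaries and loop anchors on chromatin, and auxin triggers its destruction through the AID degron. All groups were arrested in prometaphase with nocodazole. Cells were collected by sorting before release (0 min, prometaphase) and after 60, 120 and 240 min of release, the stages called early-G1, mid-G1 and late-G1, without auxin (control) or with auxin during the end of the arrest and the release. PolII was profiled in 2 libraries of each condition and stage, or 3 in the case of mid-G1, while 4 input samples, 1 per stage, entered only as the background of the peak calling. The study describes them as biological replicates, but neither it nor the labels say that they came from separate cultures, so p-values measure the spread between these libraries. Groups follow the sample titles. For late-G1 the study's reporting form names the libraries as the titles do in its list of reads but differently in its list of peak files, where a control name stands in place of an auxin name, so late-G1 comparisons between conditions rest on the titles. The same engineered line stands for both conditions, and auxin itself cannot be told apart from CTCF loss, since cells without the degron were not analysed here.

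The lists held 2414 to 3918 peaks in prometaphase and 50594 to 117125 afterwards, with mid-G1 control 1 the shortest post-mitotic list. Of 9 genes of erythroid and hematopoietic precursors, Kit, Gata2, Tal1, Lmo2, Epor, Tfrc, Gfi1b, Lyl1 and Myb, 9 had a peak in all 14 post-mitotic libraries. Among genes of other cell types, Cd3e, Cd4, Alb, Neurod1, Myod1 and Col1a1 had no peak in any library, and Pax5 had 1 weak peak in 1 library at rank 68784. In ChIP-seq of bulk cells, fewer cells with PolII at a gene and less PolII per cell cannot be told apart.

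Promoter sequences are shown for 3 genes whose start peaks differed in place or course: Ccnd2, which had the highest peak of the set there, Cdk2, whose peak lay upstream of the start, and Cdk4, whose start peak rose late. Each is the 250 bases before the first annotated start, read from the mm9 genome on the strand of the gene, 5′ to 3′. Capitals mark 8-base letters of E2F type (TTTGGCGC, TTTCCCGC, TTTGCCGC or TTTCGCGC, on either strand) or CACGTG, the E-box that reads alike on both strands and is bound by Myc, Usf and related factors. The CACGTG search was added after the sequences had been seen.
Ccnd2: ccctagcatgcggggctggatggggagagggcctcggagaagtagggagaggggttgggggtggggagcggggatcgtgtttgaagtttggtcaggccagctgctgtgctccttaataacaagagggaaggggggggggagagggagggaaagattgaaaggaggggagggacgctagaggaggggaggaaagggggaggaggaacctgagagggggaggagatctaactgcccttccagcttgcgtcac
Cdk2: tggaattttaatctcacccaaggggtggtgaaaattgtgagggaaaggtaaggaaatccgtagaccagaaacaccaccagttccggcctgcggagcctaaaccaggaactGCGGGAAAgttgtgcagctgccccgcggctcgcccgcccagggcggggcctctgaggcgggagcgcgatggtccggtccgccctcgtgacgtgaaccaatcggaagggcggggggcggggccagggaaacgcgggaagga
Cdk4: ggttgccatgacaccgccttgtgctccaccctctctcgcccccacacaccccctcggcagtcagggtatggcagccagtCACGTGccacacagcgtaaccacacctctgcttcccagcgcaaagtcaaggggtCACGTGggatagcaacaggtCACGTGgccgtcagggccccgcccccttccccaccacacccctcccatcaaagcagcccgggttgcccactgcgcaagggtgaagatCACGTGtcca
They lie at chr6:127101067-127101316 and chr10:128142108-128142357 on the minus strand and at chr10:126500340-126500589 on the plus strand.

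The Ccnd2 promoter held none of these letters in this window. Cdk2 had TTTCCCGC on the other strand from -140 to -133, and an E2F-type sequence occurred in 2.15% of all 22350 coding promoters of this length (481). Cdk4 had CACGTG at 4 places, starting at -171, -117, -97 and -10. At least 1 CACGTG was present in 6.52% of the promoters (1457), and 3 or more in 0.0761% (17). Ccne2 and Cdk6 had 1 CACGTG each, starting at -132 and -220. Over 500 bases on either side of the start, 4 of the 10 genes (Ccne2, Cdk2, E2f1 and Rb1) held an E2F-type sequence, which 7.2% of all coding genes did. In the same window 6 (Ccnd1, Ccnd3, Ccne2, Cdk2, Cdk4 and Cdk6) held CACGTG, which 17.0% of all coding genes did. These matches are letters in a window and not measured sites.

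Of the 10 genes, 9 had a peak in each of the 14 post-mitotic libraries, as 45.2% of coding genes did, and Ccnd1 had peaks in 13. A peak summit within 1 kb of an annotated coding start was found in all 14 libraries for 7 genes (Ccnd2, Ccnd3, Ccne1, Ccne2, Cdk2, Cdk4 and E2f1), against 35.5% of coding genes. Within a library, peaks were ranked by the deposited fold enrichment over background, with rank 1 the highest and tied peaks sharing a mean rank. The rank of the highest peak in a window is a place in the list and not a level per length of gene. The median rank over the post-mitotic libraries was 276 for Ccnd2, 694 for Cdk2, 965 for Cdk4, 993 for Ccnd3, 2259 for Ccne2, 2889 for E2f1, 3847 for Ccne1, 5617 for Cdk6, 6950 for Rb1 and 39865 for Ccnd1. The ranges of every pair of neighbours in this order overlapped except Rb1 and Ccnd1. Per base of the window, the median share inside peaks was highest for Ccnd2 (92.2%), E2f1 (79.3%) and Cdk4 (78.0%) and lowest for Cdk6 (5.82%) and Ccnd1 (7.59%), and the long genes Rb1 and Ccnd3 had 13.2% and 11.1%.

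**Figure D1:**
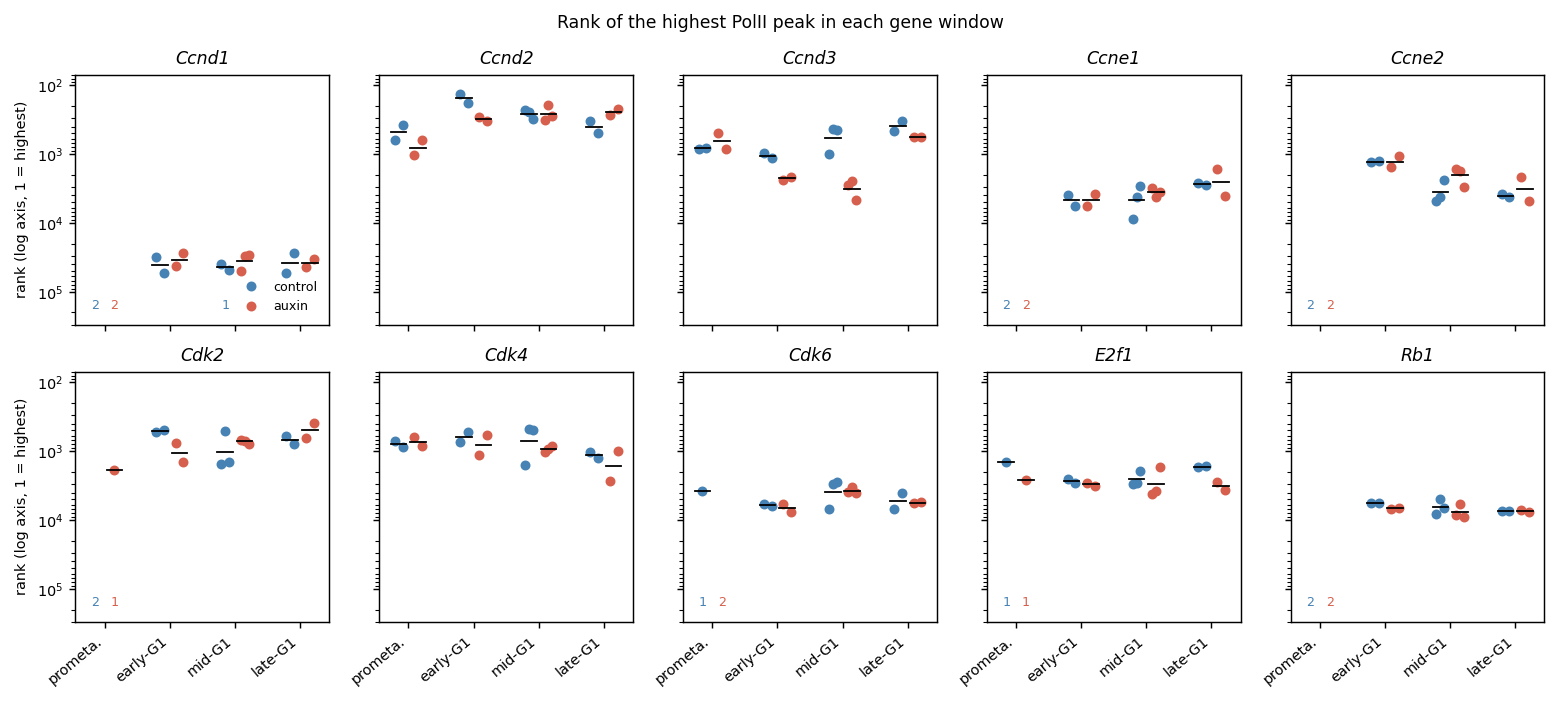
Rank of the highest PolII peak in the window of each of the 10 genes, by stage, on an inverted log axis where rank 1 is at the top; points are libraries (blue control, red auxin), bars are group means on the log scale, and coloured numbers count libraries without a peak. Ccnd2 stands highest, between 133 and 489 after mitosis, Ccnd1 lowest, beyond 27169, and the auxin libraries of Ccnd3 sit below the control libraries in each G1 stage.

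Ccnd2, the D-type cyclin with the highest peaks, carried PolII at its start throughout G1. Its highest summit lay 65 to 130 bp inside the gene in all 14 post-mitotic libraries, in the first UTR, where the antisense lincRNA 9330179D12Rik overlaps it, so reads cannot be assigned to a strand. Ranks in early-G1 were 133 and 179 in control and 291.5 and 326 in auxin libraries. In mid-G1 they were 227.5, 248 and 305 in control and 315, 192.5 and 283.5 in auxin libraries, and in late-G1 329 and 489 against 269 and 219.5. The conditions did not overlap in early-G1, where control was higher, nor in late-G1, where auxin was higher, and they overlapped in mid-G1. The share of all genes without such overlap is not given here. On the −log2 rank scale, where -1 is a doubled rank number, the auxin effect was -0.999 ± 0.372 (SE) in early-G1 and 0.72 ± 0.372 in late-G1, and neither passed the limma test adjusted over 10096 genes (adjusted p = 0.853 and 0.605). The difference of the effect between stages had an adjusted p of 0.93. The covered share of the window was 89.1% to 98.1% in early-G1 and lowest, at 68.0%, in mid-G1 control 1.

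In prometaphase, Ccnd2 kept peaks at both ends. The control libraries had a start peak at ranks 630.5 and 373.5, auxin 1 at rank 2110, and auxin 2 none. Peaks near the annotated gene end were present in all 4 lists, at ranks 981, 1134, 1042 and 632.5. These lists are short, so the ranks do not compare with those of G1, and the highest Ccnd2 peak of each rested on 14 to 25 reads.

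Ccnd3, the D-type cyclin that spans 94.6 kb on chromosome 17, was the member that changed most with auxin. Its highest peak stood not at a start but across the annotated end of the gene, with summits 94.8 to 95.4 kb from the first start. The peak was 6.5 to 10.2 kb wide. In early-G1 control 1 it ran over chr17:47731986-47739495. Its ranks in early-G1 were 976.5 and 1151 in control and 2367 and 2128 in auxin libraries. In mid-G1 they were 1010, 429 and 448.5 in control and 2785, 2475 and 4711 in auxin libraries. Late-G1 ranks were 458.5 and 330 in control and 559.5 and 570.5 in auxin libraries. Control and auxin libraries did not overlap at any of the 3 stages, and the share of all genes of which this holds is not given here.

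The rank of this peak fell with auxin by 1.36 ± 0.243 on the log2 scale over the 3 stages (adjusted p = 0.0106, limma). Calls in that direction were made for 0.317% of the 10096 genes tested (32) and in the opposite direction for 0.446% (45). In mid-G1 alone it fell by 2.46 ± 0.364 (adjusted p = 0.00719), where 0.0495% of genes fell and 0.149% rose. The effect was -1.08 ± 0.446 in early-G1 and -0.54 ± 0.446 in late-G1 and passed in neither (adjusted p = 0.971 and 0.802), where 0.099% and 0.258% of genes were called. The test of a difference between stages, which called 0.0495% of genes, did not pass for Ccnd3 (adjusted p = 0.841, limma). The fold enrichment of the peak, as deposited, was 41.5 and 36.7 in control and 34.1 and 34.4 in auxin libraries of early-G1 and 43.5 and 59.7 against 41.2 and 38.7 in late-G1. The mid-G1 values were 25.4, 41.4 and 52.4 in control against 28.9, 33.9 and 21.6 in auxin libraries, which overlapped. The lowest of the mid-G1 control values came from control 1, the shortest list. The reads under the mid-G1 summit, not scaled to depth, also overlapped, at 43, 116 and 132 in control and 107, 128 and 97 in auxin libraries. Local background there was 0.735, 1.83 and 1.54 in control and 2.74, 2.8 and 3.54 in auxin libraries. Fold enrichment is taken over this background, so the fall in rank does not by itself show fewer reads. Why the background differed was not tested. Without early-G1 control 1 or early-G1 auxin 1 the average effect no longer passed (adjusted p = 0.0576 and 0.0522), and ranked by −log10 p in place of fold enrichment it did not pass either (-0.91, adjusted p = 0.0852), nor did the mid-G1 effect (-1.28, adjusted p = 0.217).

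The same peak belongs as much to the neighbouring gene. Bysl, a ribosome assembly factor gene on the other strand, ends 94.3 kb from the first Ccnd3 start and begins at 106.4 kb, and the summit lay in a Bysl UTR in 14 of 14 libraries. The peak was also the highest of the Bysl window, so both genes have the same values in the test, and it cannot be assigned to either. At the Bysl start the peak had an auxin effect of 0.08 ± 0.220 (adjusted p = 0.95). At the coding starts of Ccnd3, taking the higher of both, the effect was -0.13 ± 0.241 (adjusted p = 0.918), with 0.54 ± 0.443 in early-G1 and -0.998 ± 0.443 in late-G1 (adjusted p = 1.0 and 0.541). This measure read the upstream start in mid-G1 auxin 2 and both late-G1 auxin libraries, where the downstream start had no summit of its own, and the downstream start in the others. Within 1 kb of the upstream start alone the effect was 0.17 ± 0.284 (adjusted p = 0.912). No member passed the auxin contrast over the 3 stages at its starts, where auxin calls were made for 0.706% of 7930 genes. The call was thus made for the peak at the convergent ends of Ccnd3 and Bysl, and no fall was called at the starts of Ccnd3.

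**Figure D2:**
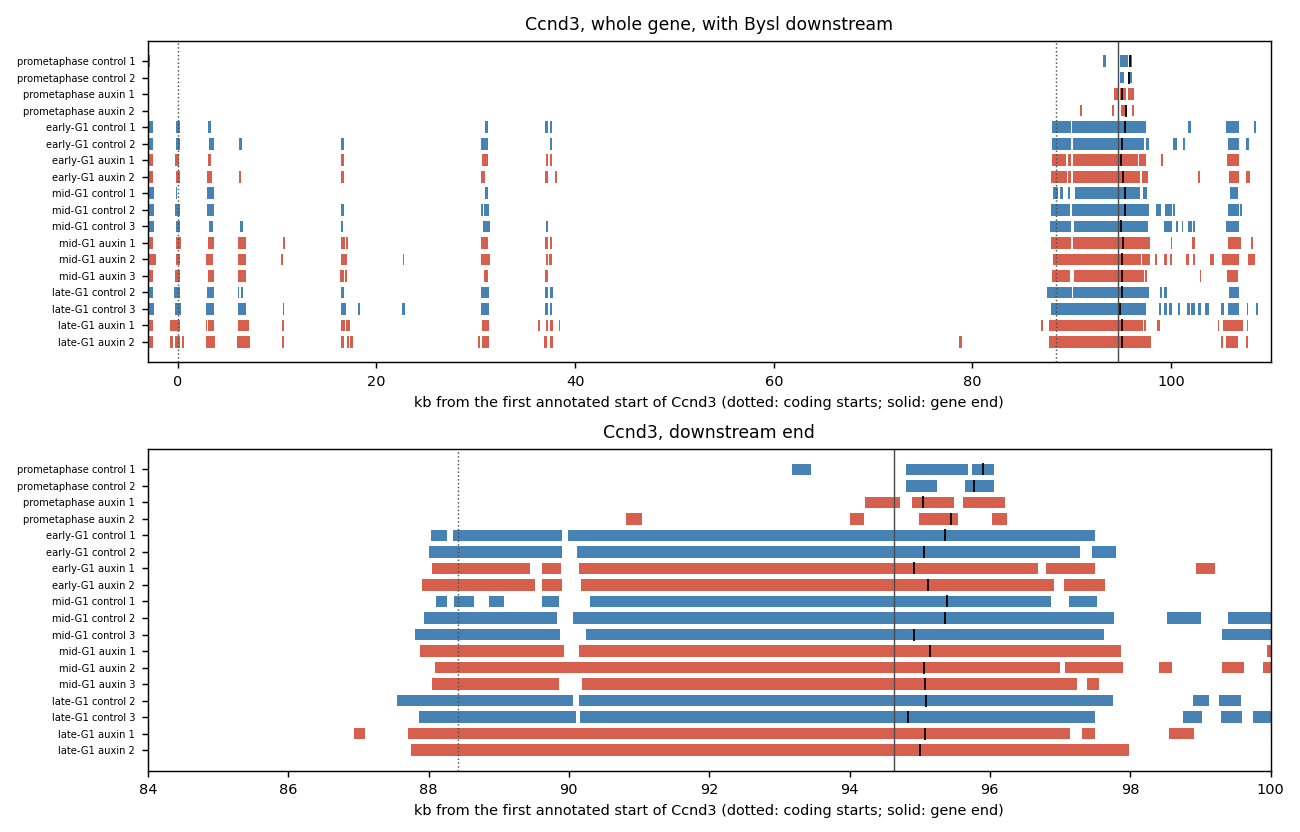
PolII peaks over Ccnd3 and the end of Bysl in the 18 libraries, as distance in kb from the first annotated start of Ccnd3 (above, whole gene; below, downstream end); bars are peaks (blue control, red auxin), black ticks mark the summit of the highest peak, dotted lines the annotated coding starts and the solid line the gene end. The wide peak across the gene end is present in every post-mitotic library and in shorter form in the 4 prometaphase libraries, and small peaks mark the first start.

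Ccnd3 has coding starts at 0 and at 88416 bp, and RefSeq starts placed in mm9 by exact sequence match fell on both. The upstream start had a summit in 14 of 14 post-mitotic libraries at ranks 7565 to 41018 (median 13472). The downstream start lay inside a peak in 14 of 14 and had a summit of its own in 11, at ranks 4174 to 14743 (median 7143). The other 3 were mid-G1 auxin 2 and both late-G1 auxin libraries. With the gene cut into 4 equal parts from start to end, part 3 was covered by no peak in any library. In part 1 the covered share was 2.65% to 5.57% in early-G1, 2.32% to 11.8% in mid-G1 and 7.10% to 15.7% in late-G1, without overlap between early-G1 and late-G1. In mid-G1 it was higher in auxin (8.70% to 11.8%) than in control libraries (2.32% to 5.07%), and likewise in late-G1 (13.4% to 15.7% against 7.10% to 13.3%), the other direction from the end peak. These shares were not tested, and how many of all genes lack such overlap is not given here.

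From early-G1 to late-G1, with both conditions averaged, the downstream peak of Ccnd3 rose by 1.72 ± 0.315 (adjusted p = 0.00229, limma). Of this average, 1.54 ± 0.288 fell between mid-G1 and late-G1 (adjusted p = 0.00426). The conditions did not share this course. Mean ranks in early-G1, mid-G1 and late-G1 were 1064, 629.2 and 394.2 in control and 2247, 3324 and 565 in auxin libraries. Changes to and from mid-G1 were not tested within a condition. Of all genes 6.33% rose from early-G1 to late-G1 (639) and 6.95% fell (702). The shares called from mid-G1 to late-G1 or within a single condition are not given here. From early-G1 to late-G1 the rise was 1.99 ± 0.446 among auxin libraries (adjusted p = 0.0196) and 1.45 ± 0.446 among control libraries (adjusted p = 0.089). At the Ccnd3 coding starts it was 0.40 ± 0.313 (adjusted p = 0.476), with 1.16 ± 0.443 among control libraries (adjusted p = 0.178) and -0.37 ± 0.443 among auxin libraries (adjusted p = 0.725), where the late-G1 values are those of the upstream start and the early-G1 values those of the downstream start. The upstream start alone ranked 13500 to 35767 in early-G1 and 7565 to 10482 in late-G1, without overlap, and its rise of 1.16 ± 0.369 did not pass (adjusted p = 0.0514). The share of all genes whose starts do not overlap between these stages is not given here. At the Bysl start the change was -0.52 ± 0.286 (adjusted p = 0.274). In prometaphase the end peak was already present in all 4 lists at ranks 835.5 and 823.5 in control and 498 and 847.5 in auxin libraries, with no summit at either start.

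Ccnd1, the third D-type cyclin, had no summit within 1 kb of its start and no peak over the start base in any of the 18 libraries. Weak peaks stood 5.15 to 9.99 kb from the start in 13 of 14 post-mitotic libraries, the farthest of them (late-G1 auxin 1) just past the end of the 9.9 kb gene in a UTR of the convergent gene Oraov1, which ends 9.1 kb from the Ccnd1 start. They had ranks of 27169 to 53755 and fold enrichments of 4.70 to 7.33. Each rested on 12 to 22 reads, and mid-G1 control 1 and the 4 prometaphase libraries had none. PolII too weak to pass the calling threshold would leave no peak there. The missing library kept Ccnd1 out of the rank tests.

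Cdk4, the kinase partner of D-type cyclins, had a start peak that rose late in G1 and a higher peak beyond its end. At the start the ranks were 6697 and 9375 in control and 8073 and 4206 in auxin libraries of early-G1. Mid-G1 start ranks were 16455, 12223 and 9911 in control and 7200, 8556 and 11602 in auxin libraries. In late-G1 they were 1217 and 1947 in control and 3416 and 3521 in auxin libraries. All 4 late-G1 libraries stood above the other 10, and the share of all genes with such a split is not given here. The start peak rose by 1.56 ± 0.307 from early-G1 to late-G1 (adjusted p = 0.00257, limma over 7930 genes, of which 12.1% were called in either direction), and by 2.199 ± 0.280 from mid-G1 to late-G1 (adjusted p = 0.000127). How many of all genes were called from mid-G1 to late-G1 is not given here.

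Among control libraries the rise of the Cdk4 start peak was 2.36 ± 0.434 (adjusted p = 0.0057) and among auxin libraries 0.75 ± 0.434 (adjusted p = 0.382). How many of all genes were called within a single condition is not given here. The auxin effect in late-G1, where control and auxin libraries did not overlap, was -1.17 ± 0.434 (adjusted p = 0.437, limma), so a difference between the conditions was not shown. For how many genes in all the conditions do not overlap is not given here. This measure of the start alone was added after the ranks had been seen.

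The highest peak of the Cdk4 window lay 4.5 to 6.7 kb from the start, inside Tspan31, a tetraspanin gene on the other strand that ends at 3.8 kb and begins at 6.7 kb, in 14 of 14 post-mitotic libraries. It ranked between 473 and 2677 and changed by -0.93 ± 0.404 from early-G1 to late-G1 (adjusted p = 0.148). Early-G1 ranks of 531 to 1124 overlapped those of late-G1 (991 to 2677), and the difference from the start was not tested. It was also the highest peak of Tspan31, with the same values in the test. All 4 prometaphase lists had a peak there, at ranks 720, 880, 629 and 847.5, and none had a summit at the Cdk4 start. The prometaphase detection of Cdk4 was therefore that of a peak inside Tspan31. In prometaphase control 1 and both auxin libraries, this peak had its summit within 1 kb of a Tspan31 coding start.

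Cdk6, the second kinase partner of D-type cyclins, is 179.3 kb long and had modest peaks. Its highest peak had the summit 2.3 to 2.4 kb upstream of the start in 13 of 14 post-mitotic libraries, outside annotated genes and outside the 2 kb flank, and reached the window with its width of 2.3 to 3.9 kb. In mid-G1 control 1 the highest peak lay 10.7 kb into the gene. Ranks were 5937, 6169, 5790 and 7763 in early-G1, 2778 to 6856 in mid-G1 with a median of 3616, and 6821, 4042, 5751 and 5483 in late-G1. No Cdk6 contrast of rank passed. The start base was inside a peak in 14 of 14 libraries, with a summit of its own within 1 kb in 8.

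Over the length of Cdk6, peaks covered 0% to 0.397% of the last of 4 equal parts in early-G1, 0.366% to 3.74% in mid-G1 and 2.30% to 15.9% in late-G1. The first part had 10.7% to 17.9%, 2.68% to 18.3% and 9.23% to 26.6% at the same stages. Late-G1 control 3, the longest list, accounted for the highest of these values with 104 peaks over 33104 bp, against 9540 to 13340 bp in the other late-G1 libraries. Covered bases of the whole window, relative to the library median, changed by 0.62 ± 0.282 from early-G1 to late-G1 and did not pass (adjusted p = 0.119).

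Ccne2, an E-type cyclin, held its highest rank in the first hour. The summit lay 455 to 520 bp from the gene start in 14 of 14 post-mitotic libraries. Ranks were 1302 and 1276 in control and 1544 and 1084 in auxin libraries of early-G1. They were 4826, 4146 and 2352 in control and 1655, 1749 and 2973 in auxin libraries of mid-G1, and 3856 and 4174 against 2166 and 4744 in late-G1. All 4 early-G1 libraries stood above the other 10, and the share of all genes with such a split is not given here. The peak fell from early-G1 to late-G1 by 1.47 ± 0.325 (adjusted p = 0.00781), with 1.08 ± 0.297 of the fall before mid-G1 (adjusted p = 0.0256) and a change of -0.40 ± 0.297 after it (adjusted p = 0.486). Of all genes 6.95% fell from early-G1 to late-G1, and the share called from early-G1 to mid-G1 is not given here. Fold enrichment went from 35.7 to 41.9 in early-G1 to 18.7 to 31.9 in late-G1. Auxin moved the rank by 0.38 ± 0.25 over the 3 stages (adjusted p = 0.671), and in prometaphase the gene had no peak.

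Ccne1, the other E-type cyclin, had its summit at -624 to -479 bp from the start (upstream) in 12 of 14 libraries and within 291 bp of it in both early-G1 auxin libraries. Early-G1 ranks were 3933, 5658, 5700 and 3760, mid-G1 ranks 2869 to 8700 with a median of 3862, and late-G1 ranks 2617, 2805, 1655 and 4031. The change from early-G1 to late-G1 was 0.82 ± 0.361 and did not pass (adjusted p = 0.154). Its estimate had the opposite sign to that of Ccne2, and the difference between these genes was not tested. The prometaphase lists had no peak at Ccne1.

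Cdk2, the kinase partner of E-type cyclins, had a peak 162 to 223 bp upstream of its start in 14 of 14 post-mitotic libraries, between Cdk2 and the divergent gene Pmel, which starts 1.2 kb upstream. Early-G1 start ranks were 531 and 493.5 in control and 768.5 and 1490 in auxin libraries. They were 1526, 508 and 1426 against 682, 705 and 776.5 in mid-G1, and 600.5 and 775.5 against 896.5 and 878 in late-G1. At the start the change from early-G1 to late-G1 was -0.07 ± 0.342 (adjusted p = 0.924) and the auxin effect -0.31 ± 0.264 (adjusted p = 0.803).

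Within 2 kb of the Cdk2 end a further peak, 8.8 to 8.9 kb from its start, marked the start of Rab5b, a gene of endosome traffic. It had its lowest ranks in mid-G1 (2987 to 6239, median 3821), against 877 to 1766 in early-G1 and 386.5 to 1238 in late-G1. It fell by 1.76 ± 0.281 from early-G1 to mid-G1 (adjusted p = 0.00246) and rose by 2.55 ± 0.281 to late-G1 (adjusted p = 0.000366). The share of all genes called at gene ends in these contrasts is not given here. In early-G1 auxin 2 and both late-G1 auxin libraries this peak, and not that of Cdk2, was the highest in the Cdk2 window, and the single prometaphase peak of the window (auxin 1, rank 1850, 12 reads) also stood there.

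E2f1, the activating E2F factor, spans 10.5 kb. Of its window, which includes both flanks and the start of Necab3, peaks covered 47.0% to 96.8% after mitosis. The highest peak of the window belonged to the start of its neighbour Necab3, about 11 kb from the E2f1 start, in 12 of 14 post-mitotic libraries. At the E2f1 start the ranks were 3652 and 2989 in control and 4587 and 6262 in auxin libraries of early-G1, 2908 to 4826 in mid-G1 with a median of 4166, and 6959, 5705, 6002 and 3873 in late-G1. The start peak changed by -0.39 ± 0.277 from early-G1 to late-G1 (adjusted p = 0.418) and by -0.18 ± 0.213 with auxin (adjusted p = 0.865). In prometaphase, control 1 and auxin 1 had a peak at the E2f1 start and the other two libraries had none.

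Rb1, the retinoblastoma gene, spans 142.2 kb on chromosome 14 and held many small peaks. The highest ranked between 5033 and 8958 in the 14 post-mitotic libraries. In 10 of them its summit lay between -0.32 and 3.43 kb from the start, in 3 at 87.7 to 87.78 kb, in a UTR of Lpar6, a lipid receptor gene inside an Rb1 intron, and in mid-G1 control 3 at 141.0 kb, near the gene end, where Gm17233 and Rcbtb2 overlap Rb1. No Rb1 rank contrast passed, and no prometaphase list had a peak. Peaks covered 40933 and 43903 bp in the early-G1 control libraries and 22789 and 17554 bp in the early-G1 auxin libraries. In mid-G1 they covered 6885, 29980 and 13891 bp in control and 21155, 28576 and 13432 bp in auxin libraries, and in late-G1 24293 and 17442 bp against 17292 and 13376 bp. The early-G1 control libraries stood above the other 12, and the share of all genes with such a split is not given here. These raw values are not adjusted for the width of each list. All peaks together covered 66.7 and 73.3 Mb in the early-G1 control lists and 57.1 and 56.8 Mb in the early-G1 auxin lists. The other post-mitotic lists covered 22.7 (mid-G1 control 1) to 70.2 Mb (late-G1 control 3). Relative to the library median, the auxin effect on covered bases in early-G1 was -0.86 ± 0.36 (adjusted p = 0.947, limma) and the change from early-G1 to late-G1 -0.58 ± 0.255 (adjusted p = 0.11), and neither passed.

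Along Rb1, divided into 4 equal parts from the start, coverage of part 1 was 23.2% to 46.8% in early-G1, 8.35% to 24.2% in mid-G1 and 12.2% to 21.9% in late-G1. Part 4 went the other way, with 0% to 7.50% in early-G1, 5.02% to 17.5% in mid-G1 and 8.09% to 11.8% in late-G1. Within 2 kb of the annotated end, early-G1 control libraries had peaks at ranks 45199 and 41901, early-G1 auxin 2 at 88885 and early-G1 auxin 1 none. Mid-G1 and late-G1 libraries had a peak there at ranks 6644 to 14407. All 10 of these later libraries stood above the early-G1 libraries, and how many of all genes show this is not given here. Part 4 also holds Mir687 and parts of Gm17233 and Rcbtb2, so PolII there cannot be assigned to Rb1 alone, and these shares were described and not tested.

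**Figure D3:**
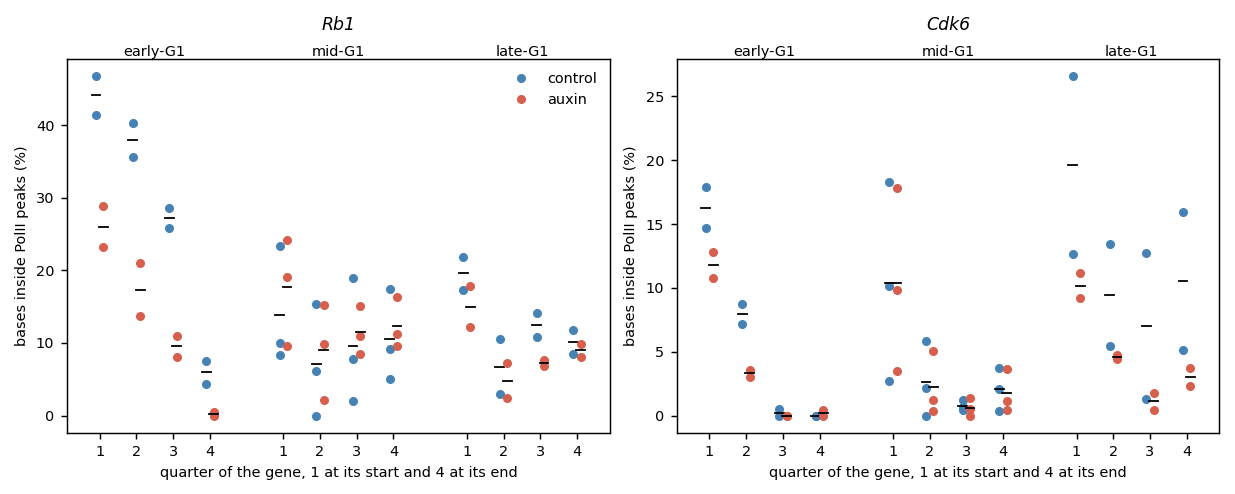
Share of bases inside PolII peaks, in percent, for 4 equal parts of Rb1 and Cdk6 from the annotated start (1) to the end (4), in early-G1, mid-G1 and late-G1; points are libraries (blue control, red auxin) and bars are group means. In Rb1 part 1 is highest in early-G1 (23.2% to 46.8%) and part 4 lowest (0% to 7.50%), and in Cdk6 part 4 reaches 2.30% to 15.9% in late-G1.

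Across the set, 1 of the 9 genes tested was called with auxin over the 3 stages, Ccnd3, through the peak it shares with Bysl, beside 0.317% of all genes lower and 0.446% higher. The other estimates over the 3 stages ran from -0.43 ± 0.311 for Cdk4 to 0.38 ± 0.25 for Ccne2, and the median of the 9 was -0.09 beside 0.00421 for all genes. No member passed in early-G1 alone, in late-G1 alone or in the test between stages (limma). At an unadjusted p under 0.05, these tests gave 2 genes (Ccnd2 and Ccnd3), 0 genes and 2 genes (Ccnd2 and Ccnd3), against 432, 902 and 514 of all 10096. For covered bases, no member passed the auxin contrast (0 genes at an unadjusted p under 0.05), where 1.65% of genes were called, and estimates ran from -0.42 for Cdk6 (adjusted p = 0.43) to 0.25 for Ccnd3 (adjusted p = 0.608).

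**Figure D4:**
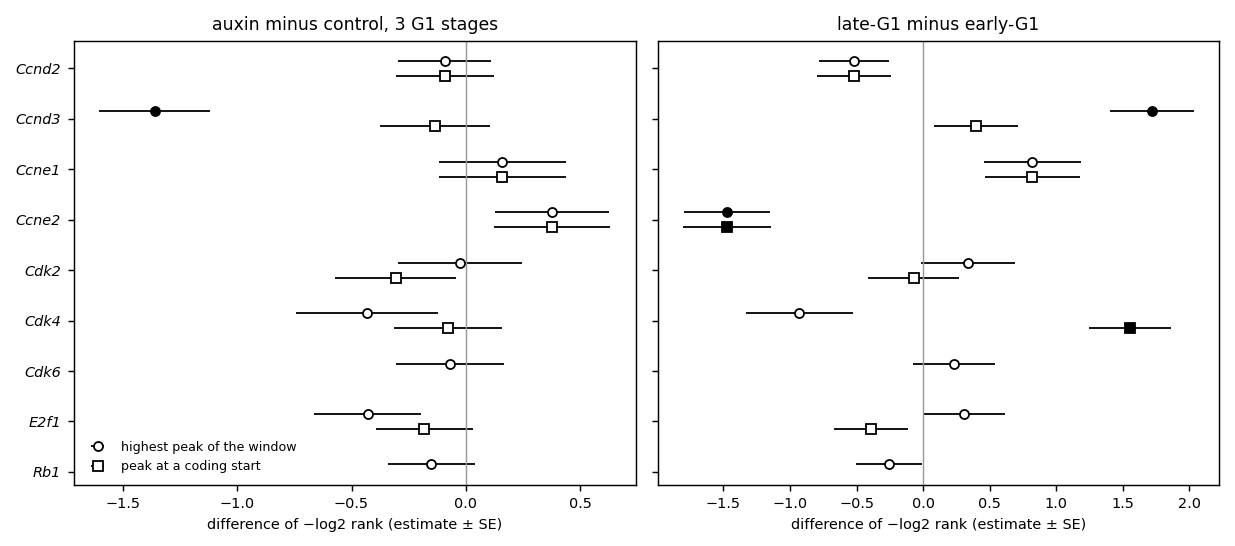
Difference of −log2 rank, as estimate ± SE, for auxin minus control over 3 G1 stages (left) and late-G1 minus early-G1 (right); circles are the highest peak of the gene window and squares the highest peak at a coding start, filled where the adjusted p was under 0.05. Ccnd3 is filled at the window level on both sides and open at its starts, Ccne2 is filled for both measures at right, and Cdk4 has a filled rise at its start (1.56) and an open negative value for the window (-0.93).

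Between early-G1 and late-G1, 1 of 9 genes rose (Ccnd3, at the shared end peak) and 1 fell (Ccne2), beside 6.33% and 6.95% of all genes, with a median of 0.23 beside 0.000972 for all genes. Covered bases changed in none (limma). Ccnd3 (0.55, adjusted p = 0.0851), Cdk6 and Rb1 had an unadjusted p under 0.05, and 27.1% of all genes were called.

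The windows of all 10 genes gained coverage after mitosis, from 0% to 15.7% in prometaphase. They include peaks with summits in neighbouring genes, such as Tspan31 for Cdk4, Bysl for Ccnd3 and Necab3 for E2f1. The gain in covered share was 84.4 percentage points for Ccnd2, 76.2 for E2f1, 64.4 for Cdk4, 64.1 for Ccne2, 53.5 for Cdk2, 47.5 for Ccne1, 15.2 for Rb1, 10.5 for Ccnd3, 8.32 for Ccnd1 and 6.39 for Cdk6. Each passed the exact two-sided permutation test adjusted over 12342 genes. The adjusted p was 0.00593 for Ccnd1, 0.00311 for Cdk6 and 0.00113 for the others, whose raw p of 0.000772 is the smallest that the design allows. A gain was called for 88.3% of the genes tested, so the count does not set these genes apart. Cdk6 did not pass without prometaphase control 1 or 2 (adjusted p = 0.0812). Without mid-G1 control 1, the shortest list, all 10 still passed.

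**Figure D5:**
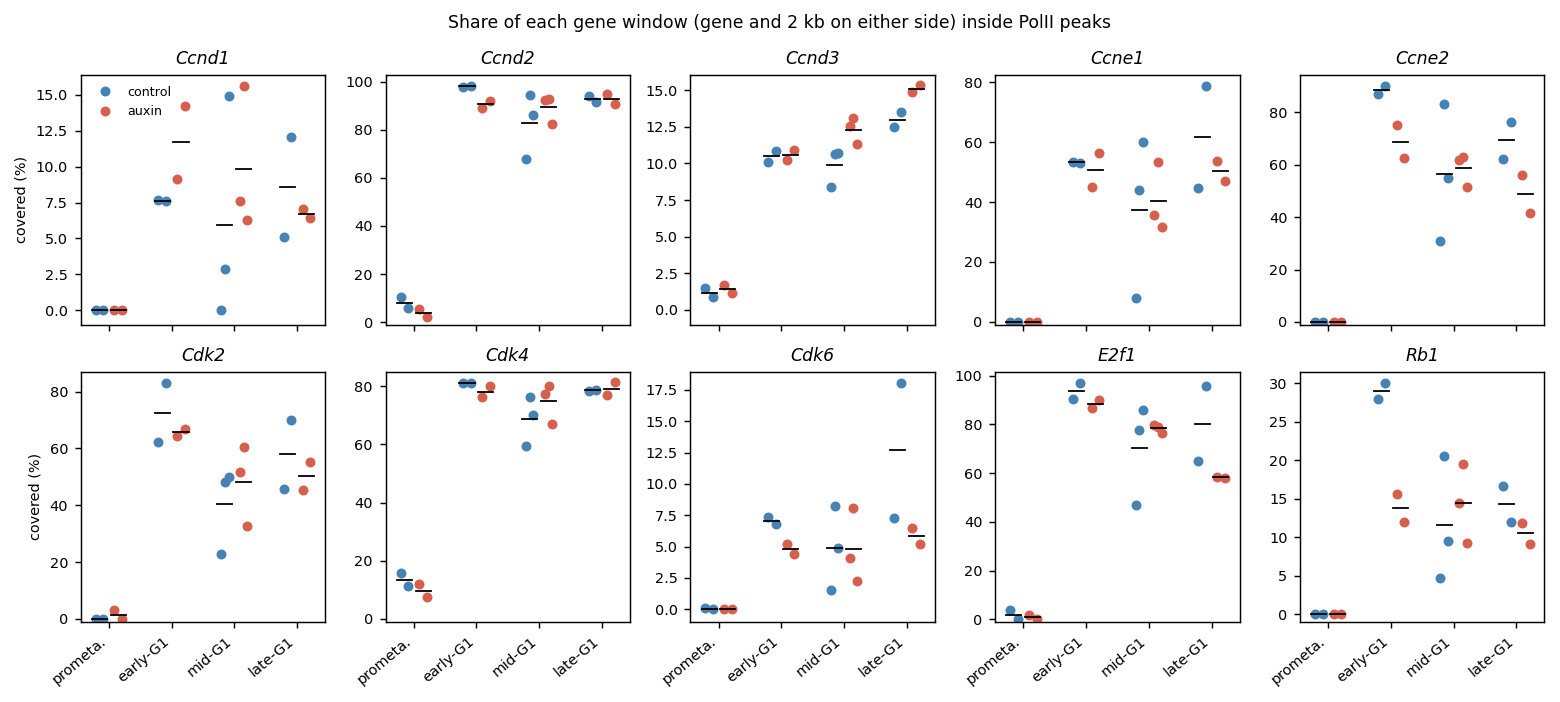
Share of each gene window (gene and 2 kb on either side) inside PolII peaks, in percent, for the 10 genes by stage; points are libraries (blue control, red auxin), bars are group means, and each panel has its own axis. Prometaphase values lie between 0% and 15.7%, Ccnd2 reaches 98.1% in early-G1, and for Rb1 the early-G1 control libraries (28.0% and 30.0%) stand above the rest. The shares are not adjusted for the bases that each list covers in all.

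Of the 10 genes, 3 (Ccnd2, Ccnd3 and Cdk4) had a peak in all 4 prometaphase libraries, which 5.12% of coding genes did (1145). For Ccnd3 it stood at the convergent ends shared with Bysl, for Cdk4 inside Tspan31 and for Ccnd2 at the gene end. At a coding start, none of the 10 had a summit in all 4 prometaphase libraries, against 3.36% of coding genes (752), and Ccnd2 had it in 3 and E2f1 in 2. Cdk2, Cdk6 and E2f1 had a peak in 1, 1 and 2 of the prometaphase libraries, with 8 to 13 reads under the highest, and Ccnd1, Ccne1, Ccne2 and Rb1 in none.

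Other genes of the pathway were read in the same way. None of the 36 genes tested in 5 lists passed the auxin contrast of rank (limma), and their list medians ran from -0.185 for G1/S regulators to 0.268 for CDK inhibitors. Between early-G1 and late-G1, E2F targets, genes of DNA replication and mitosis that E2F factors drive, had 3 of 9 members that fell and none that rose, with a median of -0.708. They were Cdc6, a replication licensing factor (-2.35 ± 0.434, adjusted p = 0.0024), Pcna, the replication clamp (-1.76 ± 0.516, adjusted p = 0.0344), and Mybl2 (-1.45 ± 0.365, adjusted p = 0.016). The same table calls 6.95% of all genes as falling.

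Of 4 CDK inhibitors tested, Cdkn1a, the p53 target that encodes p21, fell by 3.16 ± 0.399 (adjusted p = 0.000212), while Cdkn1c and Cdkn2a had no peak in any library. Of 9 other E2F and DP factors, E2f3 fell (-1.90 ± 0.435, adjusted p = 0.00943) and E2f4 rose (1.02 ± 0.306, adjusted p = 0.0373). Of 7 G1/S regulators, Cdc25a, a phosphatase that activates Cdk2, fell (-1.29 ± 0.326, adjusted p = 0.0164). None of 7 pocket protein and MuvB genes passed for rank.

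In covered bases, no gene of these lists passed with auxin. From early-G1 to late-G1, 8 of the 36 fell and 1 rose, beside 27.1% of all genes called in either direction. Lin52 (-2.58 ± 0.28), Rbl1 (-0.61 ± 0.213) and Rbbp4 (-0.58 ± 0.144) of the pocket protein and MuvB list fell (adjusted p = 5.08e-05, 0.0489 and 0.0104). Rrm1 (-0.53) of the E2F targets fell, as did Tfdp2 (-1.004) of the DP factors and Cdk7 (-0.68) and Cdc25a (-0.55) of the G1/S regulators. Cdkn2b, which encodes an inhibitor of Cdk4 and Cdk6, rose by 3.68 ± 0.453 (adjusted p = 0.000131). Its rank, between 1937 and 70204.5 in the 14 post-mitotic libraries, changed by -0.32 ± 0.919 and did not pass (adjusted p = 0.864, limma).

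Genes whose ranks ran most like those of the members were found by Pearson's r of −log2 rank over the 14 post-mitotic libraries among 10096 genes, leaving out overlapping windows. These are descriptions, chosen as the highest of many and sharing libraries and depth. For Ccne2 they were Stmn1 (r = 0.912) and Siva1 (0.899), for Cdk6 Guk1 (0.883) and Spata2 (0.871), for Ccne1 Gfod1 (0.879) and Slc25a37 (0.865), and for Ccnd3 Sc4mol (0.866) and Rdm1 (0.853). For E2f1 they were Aldoc (0.858) and Unc119 (0.823), for Rb1 Nid2 (0.847) and Cwf19l2 (0.812), for Cdk4 Uxs1 and Ing3 (0.844 each), for Cdk2 Trip6 (0.823) and Galr2 (0.815), and for Ccnd2 Stam (0.785) and A930005H10Rik (0.774). No member was among the genes most like another member.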

How the data were processed

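PolII ChIP-seq was analysed in 18 libraries of 8 groups taken from the sample titles. According to the study's methods, the authors aligned reads to mm9 with Bowtie2 2.2.9 (local alignment), filtered by mapping quality, discarded PCR duplicates and reads in blacklisted, mitochondrial or unplaced regions with SAMtools 0.1.19 and bedtools 2.27.1, and called narrow peaks with MACS2 2.1.0 in each library against the input of its stage. The deposited lists give, per peak, the fold enrichment over local background (a linear ratio) and the −log10 p-value and −log10 q-value computed by the authors. A peak appears only where it passes the caller's threshold, so deeper libraries can show more and wider peaks. The integer score that the authors' caller deposited for each peak was not used. Read totals were not used here. The reads under 155 highest peaks were recovered from fold enrichment and −log10 p, and 155 came out whole within 0.01.

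From these lists, −log2 of the rank of the highest peak overlapping a gene and 2 kb on either side by at least 1 bp, and log2 covered bases minus the library median, were fitted with limma 3.58.1 (R 4.3.3) over the 10096 coding genes with a peak in all 14 post-mitotic libraries, with 6 group means and Benjamini-Hochberg adjustment (called under 0.05). Covered share before and after mitosis was compared by exact permutation within auxin condition (1296 arrangements, 12342 genes). Python 3.11.15, numpy 2.4.6, scipy 1.17.1, pandas 2.3.3 and matplotlib 3.10.9 were used. The tests were checked on simulated data.

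The members and lists were chosen with earlier results of these data known. All 10 members are named. Of each pathway list, at most 3 called genes per direction and contrast are named, those with the largest change (a called gene, a marker and a promoter sequence are not reported here), and for each member tested the 2 genes with the highest correlation whose windows do not overlap its own; genes next to a member and those at 0 were named after their values were seen. Peaks at coding starts and at gene ends were added after the data had been seen. Alternatives covered the ranking value, window, filter, peak threshold, overlap, scale, replicate block and each library left out.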

Additional observations from a re-analysis of the deposited data

How the results depend on the processing

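The auxin call of 1 gene over the 3 stages (Ccnd3) became 0 genes with ranking by −log10 p, with a window of 1 kb around the gene start, at coding starts, and in the fit with a replicate block (-1.29, adjusted p = 0.102), and ranged from 0 to 1 when each library was left out. Samples with the same number were not paired by the labels, and their deviations correlated at 0.02 to 0.29, not above 0.1 in every pair; under the replicate block the early-G1 to late-G1 count was 3 genes, with Cdk4 added (-1.15, adjusted p = 0.0209). The mid-G1 call of 1 gene became 0 with ranking by −log10 p (-1.28, adjusted p = 0.217), in the 1 kb start window and at coding starts, and stayed at 1 without each library in turn. The early-G1 to late-G1 rank count of 2 genes became 1 in the start window (Ccne2; Ccnd3 1.16, adjusted p = 0.0514) and 1 at gene ends (Ccnd3; Ccne2 -0.93, adjusted p = 0.0535). The same contrast of covered bases ranged from 0 to 1 genes with a library left out, with Ccnd3 called without mid-G1 control 1 and Rb1 without late-G1 control 2. The gain after mitosis held for 6 of 10 genes when the share of libraries with a peak replaced the covered share, and for 9 to 10 with a library left out. The signs that changed were those of Ccnd3 over the 3 stages (0.17 in the start window), in early-G1 (0.54 at coding starts) and in mid-G1 (0.80 in the start window, 0.057 at coding starts), of Ccne2 with auxin (-0.064 at the gene end), and of Cdk4 from early-G1 to late-G1 (0.52 in the start window, 1.56 at coding starts). These settings read another peak of the gene by construction; the cause of the other changes was not tested. Leaving out 1 library of 2 leaves a group of 1, whose spread is then assumed to be that of the others. Ranks cannot show a change shared by all genes, and genes without a peak in all 14 libraries, such as Ccnd1, could not enter the rank tests.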
